A study of Homo sapiens with 6 samples.

Results

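The MYC, MAX and MXD network is a set of basic helix-loop-helix leucine zipper transcription factors that compete for the same partner and the same DNA. MYC, MYCN and MYCL pair with MAX, bind the E-box CACGTG and recruit coactivators to genes of growth and division, whereas MXD1, MXI1, MXD3, MXD4 and MNT pair with the same MAX and recruit SIN3 corepressors to such sites. MGA, the largest member, pairs with MAX within a Polycomb complex called PRC1.6. In many tissues the MXD genes are known to come up as cells leave the cycle and differentiate, and excess MYC is a common feature of ovarian carcinoma.

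The members were 10 genes chosen by symbol (*MYC*, *MYCN*, *MYCL*, *MAX*, *MXD1*, *MXD3*, *MXD4*, *MXI1*, *MNT* and *MGA*), of 58336 genes in the deposited count table. All 10 were matched by their Ensembl identifier. A2780 cells, an established human ovarian cancer line, received vehicle (0.1% DMSO, the control) or 6 µM TH588, a first-generation mitotic inhibitor of the nucleotide-sanitizing enzyme MTH1, for 48 h, and RNA was sequenced from 3 biological replicates (A, B and C) of each. Both groups were the same unmodified line and differed in treatment alone, at 1 dose and 1 time. The comparison asks how the transcripts of the network stood after the inhibitor.

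Libraries held 28537837 to 99074175 counts. TH588 replicate A was the shallowest and had 21.94% of its counts in *SNORD3A*, a small nucleolar RNA, against at most 12.95% elsewhere. Of the epithelial markers, *KRT18* and *EPCAM* rose with TH588, with *EPCAM* going from 0.644 ± 0.212 to 4.74 ± 0.350 CPM (normalized counts scaled to a common library size; SD, n = 3 each), while *KRT8*, *KRT19* and *CDH1* were too low to test. The ovarian lineage markers *PAX8*, *WT1* and *MUC16* were also too low to test, and *PAX8* had 0 counts in all 3 DMSO libraries. Of the 2 mesenchymal markers, *VIM* was abundant, at 3586 ± 216.4 CPM with DMSO (SD, n = 3) and not called, and *CDH2* was lower, at 14.4 ± 0.787 CPM with DMSO and 11.1 ± 1.07 CPM after treatment (SD, n = 3 each; log2 fold change -0.37). The immune marker *PTPRC* and the endothelial marker *PECAM1* were near 0, while the stromal markers *COL1A1* (3.97 ± 0.790 CPM with DMSO) and *DCN* (6.99 ± 0.0303 CPM; SD, n = 3 each) were detected and not called. The part of the *EPCAM*, *KRT18* and *CDH2* changes in the results below was not tested. In bulk RNA a change in the share of cells in a given state cannot be told apart from a change in RNA per cell.

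The antagonist genes *MXD1*, *MXI1*, *MXD4* and *MNT* of the network rose after TH588 while *MYC* and *MAX* did not pass the test. *MXD1* and *MXI1* rose 3.1-fold and 2.85-fold, *MXD4* 1.95-fold and *MNT* by 1.68-fold, and *MGA* fell by 25.4%. Of the 10 members, 9 were abundant enough to test, of which 4 were higher, 1 was lower and 4 did not pass an adjusted p of 0.05 (Benjamini-Hochberg over 15844 genes, edgeR's quasi-likelihood test). Across all genes tested, 49.6% passed, with 24.2% higher and 25.3% lower, so that 5 of 9 members called (55.6%) is close to the share in the whole table. Of all called genes 48.9% were higher, or 60.4% when scaled by library size only, which moved the median of all genes from 0.019 to 0.126 on the log2 scale. The 5 members called stayed called in the same direction under that scaling. The values of the 3 libraries did not overlap between the groups for 7 of the 9 members, against 57.7% of all genes. The median log2 fold change of the 9 members was 0.27, and that of all genes was 0.02. The members' median is the value of *MYCL*, a gene with few counts and a wide interval (-0.55 to 1.08).

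**Figure D1:**
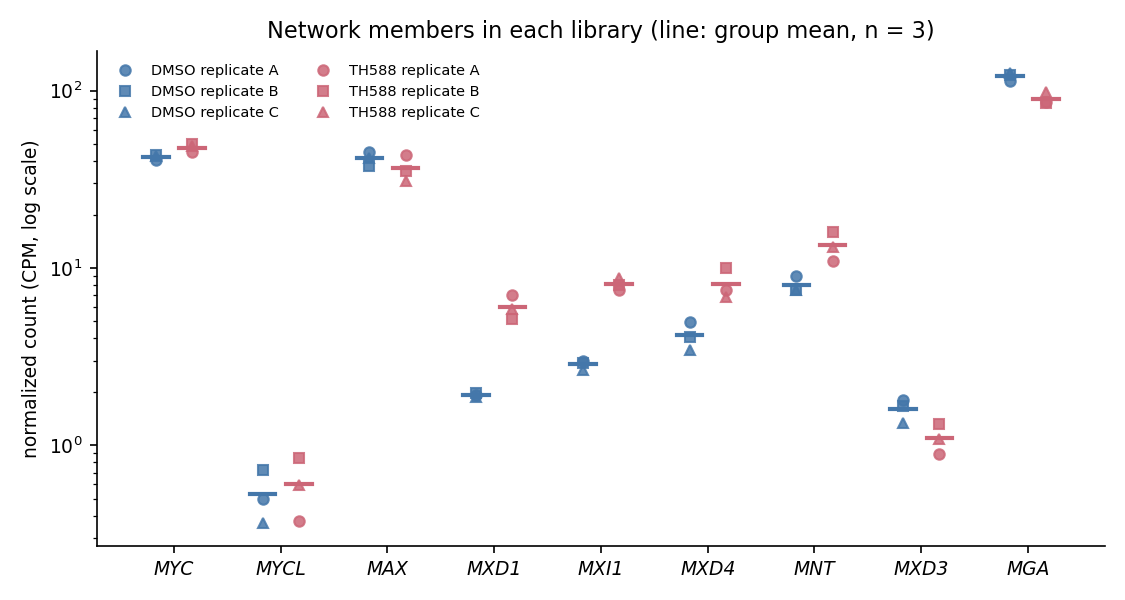
Normalized counts (CPM, log scale) of the 9 tested members in each library, with DMSO in blue, TH588 in red, replicates A, B and C as circles, squares and triangles, and lines at the group means. The 3 red points lie above the 3 blue points for *MXD1*, *MXI1*, *MXD4*, *MNT* and, by a small distance, *MYC*, and below them for *MXD3* and *MGA*.

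*MYC* (ENSG00000136997, chromosome 8 from 127735434 to 127741434 on GRCh38), the activator that gives the network its name, was measured at 40.6, 43.3 and 42.6 CPM with DMSO (replicates A, B and C, in this order throughout) and at 44.9, 49.7 and 48.5 CPM with TH588. Every TH588 library was thus above every DMSO library, by a narrow margin. The log2 fold change was 0.18 (SE 0.08, 95% interval 0.01 to 0.35), which did not pass the test (adjusted p = 0.0762, edgeR). Without TH588 replicate A the value was 0.23 and passed it (adjusted p = 0.0194, edgeR). In the other fits run, the main one included, the log2 fold change ranged from 0.15 to 0.29.

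The other activators were scarce. *MYCL* had between 10 and 92 counts per library, or 0.499, 0.727 and 0.363 CPM with DMSO and 0.374, 0.846 and 0.599 CPM with TH588. These values overlapped, and the log2 fold change of 0.27 had a wide interval, from -0.55 to 1.08 (adjusted p = 0.585, edgeR). It turned to -0.06 without TH588 replicate B. *MYCN* (chromosome 2) was listed at 0 counts in all 6 libraries, as were 56% of the genes in the table, so no fold change can be given. With 0 counts the upper limit is 3 counts, which is 0.112 CPM in TH588 replicate A and 0.0276 CPM in TH588 replicate B, for counting error only. Its antisense neighbour *MYCNOS* shares 3.8% of the exon bases of *MYCN* and was also at 0.

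*MAX* (ENSG00000125952, chromosome 14 from 65006174 to 65102695), the shared dimerization partner of the network, stood at 45.1, 37.8 and 41.9 CPM with DMSO and 43.5, 35.3 and 31.0 CPM with TH588. The groups overlapped, with TH588 replicate A inside the DMSO range. The log2 fold change was -0.19 (SE 0.12, 95% interval -0.45 to 0.07, adjusted p = 0.201, edgeR). Leaving out that library gave -0.32, which passed the test (adjusted p = 0.0183, edgeR).

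*MXD1* (ENSG00000059728, chromosome 2 from 69897688 to 69942945), the founding MXD repressor, was even across the DMSO libraries at 1.93, 1.96 and 1.88 CPM and reached 7.06, 5.18 and 5.87 CPM with TH588. Every TH588 library was at least 2.69 times the DMSO mean, and the groups did not overlap. Its log2 fold change of 1.63 (SE 0.16, adjusted p = 4.05e-06, edgeR) was larger in size than that of 94.5% of genes tested. An exon of *SNRNP27* on the same strand covers 3.7% of its exon bases.

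*MXI1* (ENSG00000119950, chromosome 10 from 110207605 to 110287365), which encodes the MXD2 repressor, went from 2.99, 2.91 and 2.67 CPM with DMSO to 7.55, 8.05 and 8.72 CPM with TH588. The groups stood far apart compared with the spread within either, which was 5.89% and 7.28% of the mean. The log2 fold change was 1.51 (SE 0.13, adjusted p = 1.67e-06, edgeR), between 1.47 and 1.56 with each library left out in turn. Its size exceeded that of 93.2% of genes.

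*MXD4* (ENSG00000123933, chromosome 4 from 2247432 to 2262294), another SIN3-recruiting repressor, measured 4.95, 4.10 and 3.43 CPM with DMSO and 7.47, 9.94 and 6.84 CPM with TH588. TH588 replicate B was the highest library, and the groups did not overlap. The log2 fold change was 0.97 (SE 0.18, adjusted p = 0.000626, edgeR).

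*MNT* (ENSG00000070444, chromosome 17 from 2384060 to 2401118), the most broadly expressed of the repressors, measured 9.04, 7.46 and 7.53 CPM with DMSO and 11, 16 and 13.2 CPM with TH588. Replicate B was again the highest TH588 library, and again no value overlapped. The log2 fold change was 0.75 (SE 0.15, adjusted p = 0.00105, edgeR), ranging from 0.60 without TH588 replicate B to 0.88 without TH588 replicate A. Exons of an unnamed gene on the opposite strand cover 12.2% of the exon bases of *MNT*, and that gene had 0 counts. How reads over both genes were counted is not given, so the effect of this overlap on *MNT* is not known.

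*MXD3* (ENSG00000213347, chromosome 5), the MXD gene tied in the literature to proliferating cells, lay on the other side. It measured 1.79, 1.66 and 1.33 CPM with DMSO and 0.897, 1.31 and 1.08 CPM with TH588, without overlap but with 1.31 against 1.33 at the boundary. Its log2 fold change of -0.51 (SE 0.23, 95% interval -1.0 to -0.01) did not pass the test (adjusted p = 0.0844, edgeR). The value is uncertain, since exons of *PRELID1* and *RAB24* cover 22.5% and 18.0% of its exon bases.

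*MGA* (ENSG00000174197, chromosome 15 from 41621224 to 41773081), the MAX partner in PRC1.6, was the member with the most counts. It measured 113.8, 122.6 and 125.3 CPM with DMSO and 86.5, 85.5 and 97.7 CPM with TH588. Every TH588 library was below every DMSO library. The log2 fold change was -0.42 (SE 0.08, adjusted p = 0.00112, edgeR), close to the median absolute change of 0.43 over all genes.

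**Figure D2:**
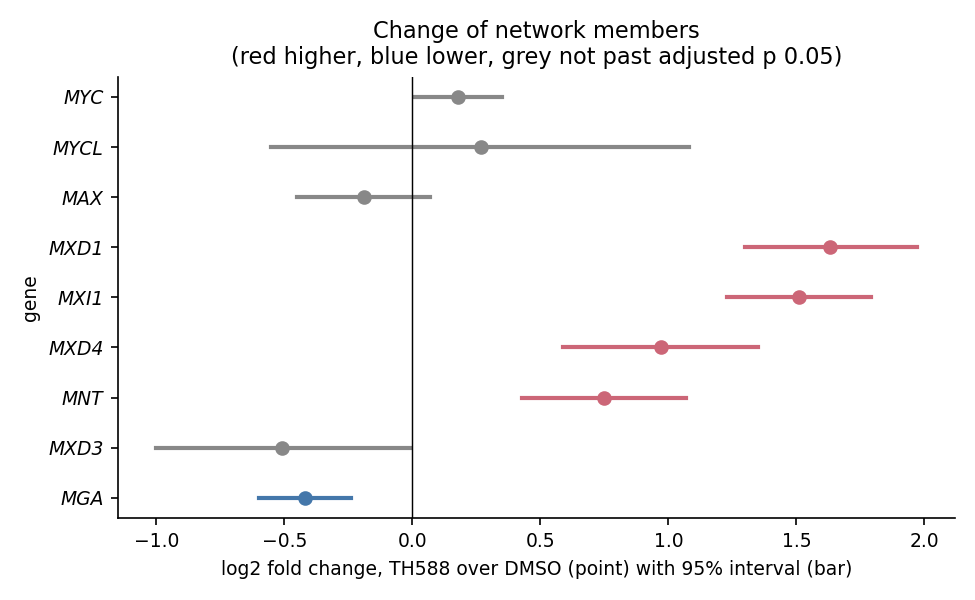
Log2 fold change of each tested member, TH588 over DMSO, as a point with its 95% interval as a bar, in red for genes higher, in blue for genes lower and in grey for genes that did not pass an adjusted p of 0.05. *MXD1* (1.63), *MXI1* (1.51), *MXD4* (0.97) and *MNT* (0.75) lie right of 0 and *MGA* (-0.42) left of it.

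Levels can be set beside each other per length. Per kb of the exon length in the count table, the order with DMSO was *MYC* (14 ± 0.465 CPM per kb), *MAX* (9.39 ± 0.829), *MGA* (6.83 ± 0.342), *MNT* (0.918 ± 0.102), *MXI1* (0.620 ± 0.0365), *MXD4* (0.589 ± 0.108), *MXD3* (0.309 ± 0.0454), *MXD1* (0.303 ± 0.00673) and *MYCL* (0.105 ± 0.0363), all as SD with n = 3. The neighbours *MXI1* and *MXD4*, and *MXD3* and *MXD1*, differed by less than their spread. With TH588, *MXI1* (1.76 ± 0.128 CPM per kb) stood beside *MNT* (1.54 ± 0.291), followed by *MXD4* (1.15 ± 0.232) and *MXD1* (0.95 ± 0.15), while *MXD3* was at 0.213 ± 0.0406 (SD, n = 3 each). The top of the order depended on the length used. Per kb of the Ensembl canonical transcript with DMSO, *MAX* (20.7 CPM per kb) was above *MYC* (11.3), *MGA* was at 9.89, and *MXD3* (1.49) moved up to stand beside *MNT* (1.63). These lengths differ from the exon bases counted. *MYC* has 3001 counted bases and a canonical transcript of 3721, whereas *MXD3* has 5154 and 1067. Levels and ratios on canonical lengths carry this mismatch.

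The summed level of *MXD1*, *MXD3*, *MXD4*, *MXI1* and *MNT* was compared with that of the MYC family within each library, as a description without a test and first without *MGA*. With DMSO the ratio was 0.223, 0.185 and 0.174 in replicates A, B and C, and with TH588 it was 0.348, 0.362 and 0.338. The highest DMSO library was below the lowest TH588 library. On canonical transcript lengths the group means were 0.469 ± 0.0671 and 0.712 ± 0.0402 (SD, n = 3 each), a rise of 1.52-fold compared with 1.80-fold per kb of exon length. The rise depended on which genes were summed. With *MGA* added to the antagonists, a choice made after seeing the data, the ratio per kb of exon length was 0.696, 0.662 and 0.672 with DMSO and 0.674, 0.652 and 0.679 with TH588. These values overlapped, with means of 0.677 ± 0.0175 and 0.668 ± 0.0143 (SD, n = 3 each), and on canonical lengths the means were 1.33 ± 0.0499 and 1.28 ± 0.00961 (SD, n = 3 each), slightly lower with TH588 and without overlap. *MGA* was the most abundant of the opposing genes, and its fall offset part of the rises of the others in the sum. The MYC family level that divides the sum was also higher with TH588. Per kb of exon length it was 13.6, 14.6 and 14.3 CPM with DMSO and 15.1, 16.7 and 16.3 CPM with TH588. The share of the 10-gene sum taken by *MGA* went from between 19.4% and 21.3% to between 13.6% and 16.1% per kb of exon length.

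**Figure D3:**
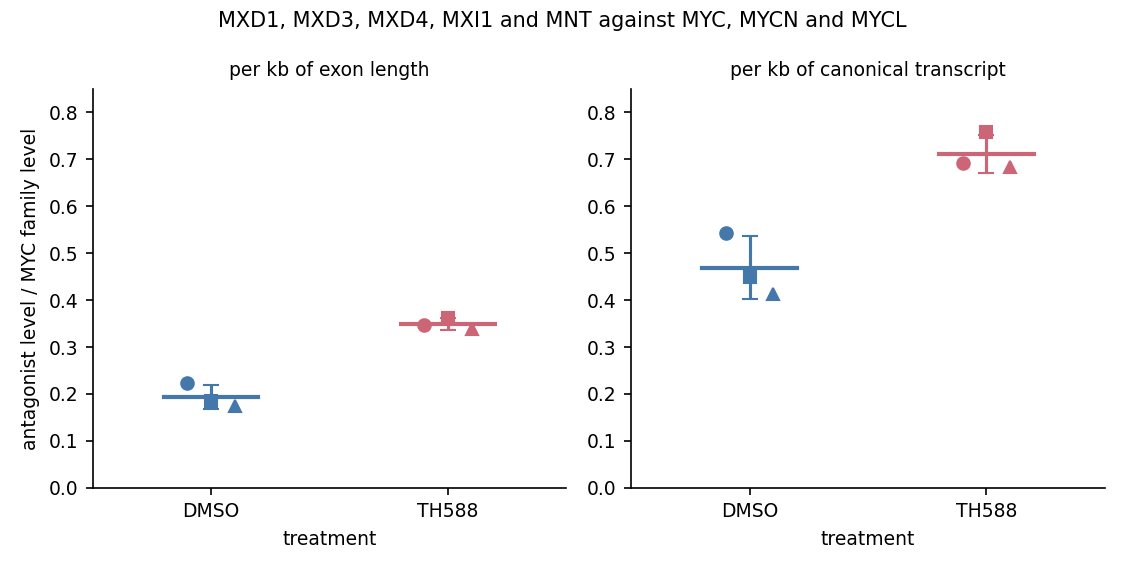
Ratio of the summed level per kb of *MXD1*, *MXD3*, *MXD4*, *MXI1* and *MNT* to that of *MYC*, *MYCN* and *MYCL* in each library, on the exon length of the table (left) and on canonical transcript length (right), with symbols for replicates A, B and C, lines at the mean and bars of 1 SD. TH588 libraries (red) lie above DMSO libraries (blue) on both, with means of 0.350 against 0.194 on the left and 0.712 against 0.469 on the right. *MGA* is not in the sum, and with it the means on the left would be 0.668 and 0.677.

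Because the network reads the E-box, promoter sequences were searched for CACGTG, which reads the same on both strands. RefSeq windows on GRCh38.p14, from 250 bases before to 50 bases after a start site, were found for 9 members, in 14 windows. Of these, 2 members hold the motif, *MXD4* and *MNT*, compared with 8.77% of the 27305 genes that have a window and 12.3% of the tested genes that do. *MYC* is the member without a window in the table. The wider CANNTG, which includes CACGTG, was in 8 of the 9 and in 73.1% of all genes. The windows of the 2 genes, which both rose, are printed here 5′ to 3′ on the gene's strand with CACGTG in capitals. It begins 238 bases before the start of *MXD4* (chr4:2262060-2262359, minus strand) and 193 bases before that of *MNT* (chr17:2401011-2401310, minus strand). *MXD1* and *MXI1*, with the larger rises, do not hold these letters in their windows.
MXD4: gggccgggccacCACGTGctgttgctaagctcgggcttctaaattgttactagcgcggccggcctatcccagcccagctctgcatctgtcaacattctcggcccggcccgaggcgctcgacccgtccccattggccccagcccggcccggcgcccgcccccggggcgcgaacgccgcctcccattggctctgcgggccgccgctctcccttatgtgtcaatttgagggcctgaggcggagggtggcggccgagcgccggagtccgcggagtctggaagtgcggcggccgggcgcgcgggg
MNT: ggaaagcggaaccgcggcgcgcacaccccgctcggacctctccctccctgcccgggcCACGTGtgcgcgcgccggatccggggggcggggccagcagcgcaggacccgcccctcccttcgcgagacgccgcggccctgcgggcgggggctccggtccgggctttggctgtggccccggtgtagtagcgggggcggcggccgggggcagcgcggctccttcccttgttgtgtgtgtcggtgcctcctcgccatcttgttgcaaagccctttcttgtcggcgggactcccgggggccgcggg

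The parallel MLX branch, in which MLX takes the place of MAX, was compared as the nearest relative of the network. *ARRDC4* and *TXNIP*, arrestin-family brakes on glucose uptake known as targets of MondoA and MLX, rose strongly. *TXNIP* went from 14.6, 15 and 14.6 CPM with DMSO to 64.7, 58.6 and 60.6 CPM with TH588, a log2 fold change of 2.06 (SE 0.08, adjusted p = 1.40e-08, edgeR). *ARRDC4* went from 3.69, 2.98 and 3.40 to 23.6, 20.4 and 25.6 CPM, a log2 fold change of 2.79 (SE 0.13, adjusted p = 2.72e-08, edgeR). The factors themselves moved apart. *MLXIPL* (ChREBP) rose, with a log2 fold change of 0.86, *MLXIP* (MondoA) fell by 0.54 on the log2 scale, and *MLX*, with 18.1% of its exon bases shared, was at 63.7 ± 1.93 and 62.7 ± 1.64 CPM (SD, n = 3 each; adjusted p = 0.811, edgeR). *PKLR*, a pyruvate kinase gene and ChREBP target in liver, was at 0.488 ± 0.196 and 0.504 ± 0.242 CPM and could not be told apart between the groups. Of these 6 genes, 3 were higher and 1 was lower, against 24.2% and 25.3% over all genes, with a median log2 fold change of 0.46.

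Genes that MYC is known to activate were mostly lower. Of 73 such genes in 3 lists, all tested, 63 (86.3%) were lower and 10 did not pass, compared with 25.3% lower over all genes, and the median log2 fold change was -0.79. None was higher by edgeR, at an unadjusted p under 0.05, or by DESeq2. The lists were written from general knowledge of MYC targets with earlier results of these data known. A change of MYC protein was not measured.

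Ribosome and RNA synthesis genes made up the longest list, with 30 of 34 lower and a median log2 fold change of -0.75. *UTP20*, a factor of small subunit processing, went from 267.6, 284.1 and 280.7 CPM with DMSO to 97.4, 116.5 and 120.2 CPM with TH588, a log2 fold change of -1.32 (SE 0.09, adjusted p = 3.91e-07, edgeR). *MPHOSPH10* (-1.23) and *RRP9* (-1.22), both of the U3 particle, followed. The abundant nucleolar transcripts *NCL* (nucleolin) and *NPM1* (nucleophosmin), named here after their values were seen, had log2 fold changes of -0.95 and -0.65.

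Cell cycle targets had the lowest median, -1.18, with 10 of 11 lower. *CDC25A*, a phosphatase that opens S phase, had means of 67.1 ± 2.32 CPM in the control group and 18.0 ± 2.30 CPM in the treated group (SD, n = 3 per group), or -1.89 on the log2 scale (adjusted p = 5.62e-08, edgeR). *MCM4* (-1.59), a helicase subunit, and *E2F1* (-1.47), an S phase transcription factor, came next. These genes are also set by E2F and by the share of cycling cells, and that part was not tested. The 1 gene that did not pass was *CCND2* (cyclin D2), with a log2 fold change of 0.05.

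Metabolic and other targets were lower in 23 of 28 genes, with a median of -0.68. *SRM* (spermidine synthase) went from 109.9, 95 and 99.4 CPM with DMSO to 37.2, 42.8 and 35.1 CPM with TH588, a log2 fold change of -1.40 (SE 0.10, adjusted p = 3.51e-07, edgeR). *HK2* (hexokinase 2; -1.35) and *HSPD1* (a mitochondrial chaperonin; -1.27) had the next largest falls that the naming rule took. The textbook targets *ODC1* (-1.19), *LDHA* (-1.09) and *TERT* (-1.22) were among those lower; these 3 were named after their values were seen. Of the 10 targets in the 3 lists that did not pass, 4 (*IPO4*, *PPAN*, *NOP2* and *EIF4A1*) share more than 45% of their exon bases with other genes, and their values are uncertain. Targets called lower can share exon bases too, such as *CDK4* (43.2%) and *DCTPP1* (42.1%), and their values carry the same uncertainty.

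**Figure D4:**
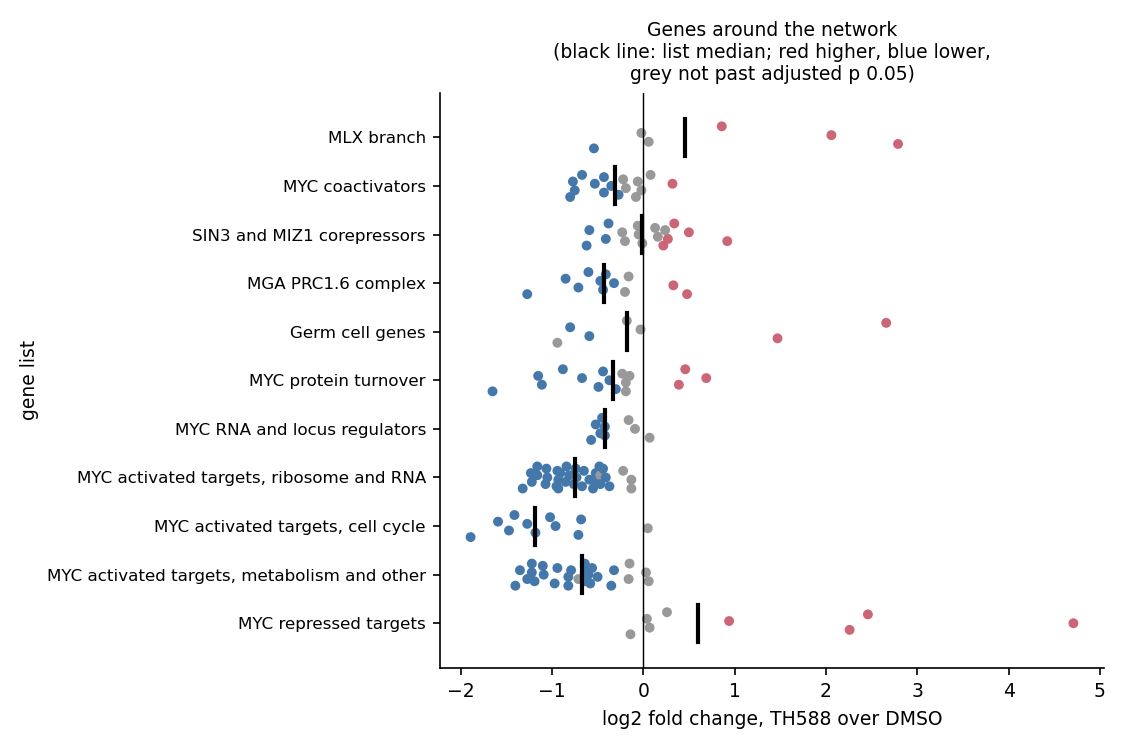
Log2 fold change, TH588 over DMSO, of each tested gene (point) in the lists around the network, with a black line at each list's median, in red for genes higher, in blue for genes lower and in grey for genes that did not pass an adjusted p of 0.05. The 3 lists of MYC activated targets have medians of -0.75, -1.18 and -0.68 with no red point, and the MYC repressed targets have a median of 0.60 with no blue point.

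E-boxes were frequent in the promoters of these targets. Of the 60 target genes with a RefSeq window, 31 (51.7%) hold CACGTG, compared with 12.3% of the 11124 tested genes that have one. The lists consist of genes known as MYC targets, so this describes the lists and not the treatment. *HK2* and *SRM* are shown as examples among those that fell, with CACGTG in capitals. The second start of *HK2* (chr2:74834920-74835219, plus strand) has it at 194 and 149 bases upstream, and *SRM* (chr1:11059969-11060268, minus strand) at 199 bases upstream.
HK2: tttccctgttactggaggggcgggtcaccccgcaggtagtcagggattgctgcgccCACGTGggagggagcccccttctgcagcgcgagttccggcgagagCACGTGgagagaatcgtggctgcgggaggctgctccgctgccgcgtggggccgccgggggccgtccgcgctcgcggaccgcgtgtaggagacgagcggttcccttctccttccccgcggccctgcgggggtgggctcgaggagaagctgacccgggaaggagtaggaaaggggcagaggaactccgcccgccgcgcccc
SRM: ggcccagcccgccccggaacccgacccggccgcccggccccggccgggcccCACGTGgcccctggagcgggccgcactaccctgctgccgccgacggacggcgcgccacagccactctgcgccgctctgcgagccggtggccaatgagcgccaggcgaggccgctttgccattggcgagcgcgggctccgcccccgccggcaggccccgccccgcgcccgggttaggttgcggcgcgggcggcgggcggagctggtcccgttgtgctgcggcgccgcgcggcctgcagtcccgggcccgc

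Genes listed as repressed by MYC were higher or did not pass. Of 8 tested, 4 were higher and 4 did not pass, against 24.2% higher over all genes, and the median was 0.60 on the log2 scale. None was lower by edgeR, at an unadjusted p under 0.05, or by DESeq2. *CDKN1A* (p21, the CDK inhibitor; 4.71) and *GADD45A* (a stress sensor; 2.26) had large log2 fold changes, and both are direct p53 targets as well. *DDIT3* (0.94), a stress factor, shares 39.6% of its exon bases with other genes. *CDKN1C* (2.46), another CDK inhibitor, is the fourth that rose and was named after its values were seen. *CDKN1B* (p27) measured 42.2 ± 1.58 and 43.2 ± 6.01 CPM (SD, n = 3 each) and did not pass the test.

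The machinery that the 2 arms recruit was compared next. Of 16 MYC coactivators, 9 were lower and 1 was higher, against 25.3% lower and 24.2% higher over all genes, with a median log2 fold change of -0.31. *RUVBL1* (-0.80), an ATPase of chromatin remodelling complexes, *HCFC1* (-0.77) and *WDR5* (-0.75), both direct MYC partners, had the largest falls, and *CCNT1* (0.32), the cyclin of P-TEFb, was the gene that rose. The call of *CCNT1* was lost when any 1 DMSO library was left out, with log2 fold changes of 0.30, 0.35 and 0.34. Among 17 SIN3 and MIZ1 corepressor genes, 5 were higher (29.4%) and 4 lower (23.5%), with a median of -0.01, which is near the shares over all genes and not a result about this list. *SIN3A*, the scaffold the MXD proteins bind, was at 120.6 ± 7.75 and 116.4 ± 9.83 CPM (SD, n = 3 each; adjusted p = 0.642, edgeR). *ARID4A* (0.92), *SUDS3* (0.50) and *ING1* (0.34) rose, whereas *HDAC2* (-0.62) and *RBBP7* (-0.59) fell. The corepressors called higher numbered 2 without DMSO replicate B, DMSO replicate C or TH588 replicate B. The rise of *ING1* was not called under 8 of the alternatives run at the same threshold.

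Genes of the PRC1.6 complex around MGA were mostly lower. Of its 12 other genes, 8 were lower and 2 were higher, against 25.3% and 24.2% over all genes, with a median log2 fold change of -0.42. *TFDP1*, the E2F partner, went from 183.0, 169.3 and 176.7 CPM with DMSO to 66.3, 80.9 and 71.8 CPM with TH588, a log2 fold change of -1.27. *PCGF6* (-0.85), the subunit that defines PRC1.6, and *CBX3* (-0.71), which is also on the cell cycle target list, fell as well, while *RING1* (0.48) and *YAF2* (0.33) rose. Without TH588 replicate B, 1 of these genes was called higher. Germ cell genes, which this complex is known to keep silent, were scarce. Of 14, 7 were too low to test and 7 were tested, with shares called near those of all genes, namely 2 higher (*STAG3*, 1.47, and *MEI1*, 2.66) and 2 lower (*MEIOB*, -0.80, and *SYCP3*, -0.59). *STAG3*, *MEI1* and *SYCP3* were named after their values were seen. *MEI1* reached only 0.307 ± 0.190 CPM with TH588 (SD, n = 3). *STAG3* and *MEIOB* share 32.3% and 18.0% of their exon bases with other genes.

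Regulators of MYC protein turnover were lower in 9 of 16 genes and higher in 3, against 25.3% and 24.2% over all genes. *FBXW7*, the ubiquitin ligase subunit that marks MYC for destruction, rose from 29.5, 26.6 and 28.2 CPM to 50.9, 42.6 and 42.5 CPM, a log2 fold change of 0.69 (SE 0.09, adjusted p = 7.42e-05, edgeR). *GSK3B* (0.46), the kinase that primes MYC for it, and *TRIM32* (0.39), another ligase, rose too. *CIP2A*, which shields MYC from phosphatase PP2A, had means of 119.4 ± 3.52 CPM in the control group and 38.1 ± 2.88 CPM in the treated group (SD, n = 3 per group), or -1.65 on the log2 scale (adjusted p = 4.33e-08, edgeR). *SKP2* (-1.15) and *AURKA* (-1.11), which are also cell cycle genes, fell. The 9 lower genes also included the ligase *HUWE1* (-0.37) and the PP2A subunit *PPP2R5A* (-0.49), both named after their values were seen. What these changes together mean for MYC turnover was not tested. Among regulators of the MYC locus and RNA, 6 of 9 tested were lower, against 25.3% over all genes, and none was higher by edgeR, at an unadjusted p under 0.05, or by DESeq2. *IGF2BP1* (-0.57), which protects *MYC* mRNA, *HNRNPK* (-0.52) and *CNBP* (-0.47) had the largest falls. *PVT1*, the long noncoding neighbour of *MYC*, was too low to test, at 0.0405 ± 0.0351 and 0.0412 ± 0.0316 CPM (SD, n = 3 each), and *MIR34AHG*, the host of miR-34a, was listed at 0 in all 6 libraries.

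The 3 genes whose levels followed *MYC* most closely across the 6 libraries were *ING1* (Pearson's r = 0.990), *GGA1* (0.987) and *PPP2R5D* (0.986), out of 9750 genes ranked. The 6 points share the division into DMSO and TH588, and the ranking is a description without a test.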

How the data were processed

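Libraries were made from poly(A) RNA with an unstranded TruSeq kit. The authors aligned reads to GRCh38 with TopHat, counted them per gene with featureCounts 1.4.6 and deposited raw counts. How overlapping genes were counted is not given in the sources used here, and antisense reads cannot be separated. Of 201 listed genes, 200 were found.

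Groups were compared with edgeR 4.0.16 (R 4.3.3) after TMM scaling and filterByExpr, by the quasi-likelihood test with treatment as the only term. p-values were adjusted by Benjamini-Hochberg over 15844 genes. SE is the log2 fold change over the square root of F. For 1 gene, 3 against 3 samples cannot give an exact permutation p below 0.1. The fit was tested on simulated data, in which 192 of the 15333 genes tested had a log2 fold change of 1. It recovered 140 of these 192 and called 11 unchanged genes. Above a log2 CPM of 2 it recovered 128 of 129, so nearly all the changes it missed were in less abundant genes. Replicate pairs differed beyond sampling noise (chi-square per degree of freedom 25.15 to 179.9). Alternatives were DESeq2 1.42.0, limma-voom (limma 3.58.1), other scalings and filters, a replicate block and each library left out. Canonical transcript lengths (GENCODE 44) and the ratio with *MGA* were added after seeing the data.

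Members and lists were chosen with earlier results of these data known. Named were all members, every gene of a list of up to 6, the 3 genes most like *MYC*, and elsewhere the 3 largest called rises and falls without overlap whose average log2 CPM was 2 or more. Of these, 1 gene that this rule names is not reported here.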

Additional observations from a re-analysis of the deposited data

How the results depend on the processing

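The calls of *MXD1*, *MXI1*, *MXD4*, *MNT* and *MGA* and the direction of the other tested members except *MYCL* held under every alternative run. With each library left out in turn, 1 to 2 members were called lower (*MAX* joined without TH588 replicate A) and *MYCL* ranged from -0.06 to 0.56 in log2 fold change. With library size only, 60.4% of called genes were higher against 48.9%, the median of all genes was 0.126 against 0.019, 5 coactivators and 2 corepressors were lower, and *MLX* was 0.08. At an adjusted p under 0.01, 0 coactivators, 2 corepressors and 1 PRC1.6 gene were higher. Leaving out single libraries gave 0 to 1, 2 to 5 and 1 to 2 for these counts, -0.05 to 0.01 for *MLX* and -0.44 to 0.35 for *PKLR*. With at least 10 counts in every library, 1 germ cell gene was higher. The replicate letters did not pair the libraries (correlations of deviations -0.07, -0.08 and 0). The fit with the replicate block called 7195 genes against 7852. No member changed its call in it, while 2 corepressors and 1 PRC1.6 gene were higher, and *PKLR* was -0.01. The cause of these differences was not tested. The longest RefSeq transcript length was not run. The ratio of antagonists to the MYC family does not change with scaling, but its rise was absent with *MGA* added (0.677 with DMSO and 0.668 with TH588). Genes under 1 CPM, such as *MYCL*, are limited by depth, most of all in TH588 replicate A. *MXD3* (average log2 CPM 0.49) and *MYCL* (-0.7) are below the log2 CPM of 2 under which the simulation missed changes. *MXD1* (1.95), which was called, is just below it too. That *MXD3* and *MYCL* did not pass the test therefore does not show that they were unchanged.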
